A study of Mus musculus with 3 samples.

Results

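The cells described here are pro-B cells from mouse bone marrow that were chosen by their content of transcripts of 18 genes used in late G2 and mitosis. Each pro-B cell was scored by the summed counts of these genes per 10000 counts of the cell (the G2M score), and cells with a score of 60 or more were taken as G2M-high cells. They numbered 231 of the 1106 pro-B cells that showed at least 500 genes and no more than 10% mitochondrial counts, a share of 20.9% (exact Clopper-Pearson 95% interval 18.5% to 23.4%). The remaining 875 pro-B cells are called the other pro-B cells.

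The cells came from C57BL/6J mice, and each count is a UMI, a barcode added to 1 captured mRNA so that its copies are counted once. Pro-B cells, precursors already committed to the B lineage, were sorted as cKit+Sca1-Flt3-IL7Ra+B220+. The 2 other sorted populations were the CLP (cKit+Sca1+Flt3+/-IL7Ra+B220-) and the LMPP (cKit+Sca1+Flt3+IL7Ra-B220-), which are lymphoid and multipotent progenitors, and all 3 populations together gave 2633 kept cells. Each population was run as 1 library with the 10x Chromium Single Cell 3' v2 chemistry, and the number of animals behind a library is not given in the sources used here. G2M-high and other pro-B cells come from the same library and sort, and cells of 1 library are not replicates. Differences between them are therefore given as values without a test. Intervals cover counting error only, and fewer mRNAs of a gene per cell cannot be told apart from fewer cells that make it where only sums are given.

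At mitosis a cell condenses its chromosomes, builds a spindle of tubulin, attaches each chromosome through its kinetochore and then destroys cyclin B and the links between sister chromatids through the anaphase promoting complex. The mRNAs for this machinery accumulate after DNA synthesis, peak around mitosis and are cleared as the cells return to G1. Pro-B cells in the bone marrow divide in response to interleukin 7 and rearrange their heavy chain genes, and the Rag2 protein is destroyed as cells enter S phase.

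Cells lay close to the threshold on both sides. The lowest G2M-high cell scored 60.1 and the highest other pro-B cell 59.7. Between 60 and under 70 there were 35 cells, and between 50 and under 60 there were 51. The group is defined as a range of this score, and whether it forms a type of its own was not tested. Within it the score had a median of 93.6 and reached 186, against a median of 9.28 in the other pro-B cells. A G2M-high cell held a median of 80 UMIs of the 18 genes (16 to 180) from a median of 16 of them, against a median of 3 of the genes in the other pro-B cells, of which 99 had none. In the remaining libraries 1 of 948 CLP cells reached the same score (0.105%, interval 0.00267% to 0.586%) and 0 of 579 LMPP cells did. The limit from 3 counts is then 0.518%, and the upper end of the exact interval is 0.635%. With every cell thinned to 2000 UMIs the shares were 22.5% in pro-B (241 of 1070 cells), 0.330% in CLP (3 of 908) and 0 of 573 LMPP cells. The libraries shared 1 to 3 barcodes in pairs, and 1 of the G2M-high cells had a barcode also found in another library.

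**Figure D1:**
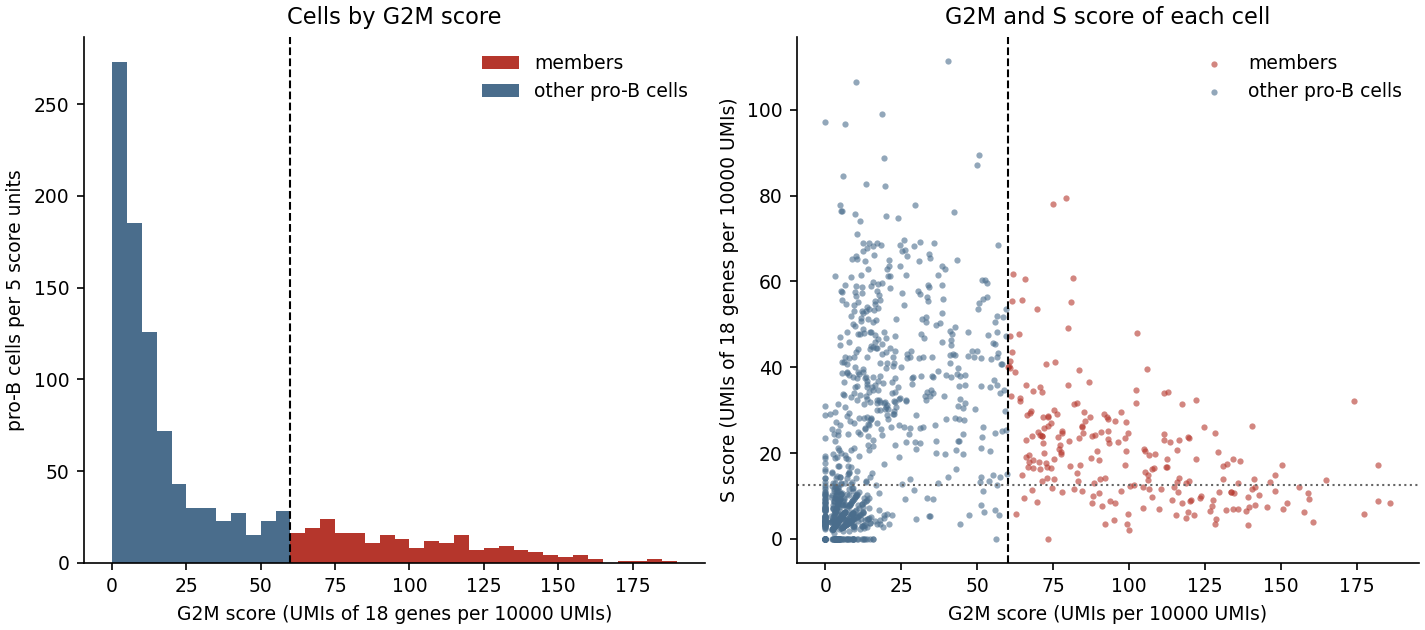
Left, pro-B cells per 5 units of G2M score (UMIs of 18 genes per 10000 UMIs of the cell), with the threshold of 60 dashed. Right, the G2M score of each cell against its S score (UMIs of 18 DNA replication genes per 10000 UMIs), with the threshold dashed and the median S score of the other pro-B cells, 12.6, dotted. The 231 G2M-high cells scored up to 186, and their G2M and S scores had a Spearman correlation of −0.54.

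G2M-high cells carried more RNA. Their median was 8359 UMIs per cell (2017 to 22106), against 4506 (1805 to 30787) in the other pro-B cells, a ratio of 1.86, and 213 of 231 lay above the median of the others. Their median number of genes was 2573, against 1732 in the other pro-B cells, and at 2000 UMIs per cell it was 1023 against 985. Mitochondrial transcripts made up a median of 1.86% of the UMIs in G2M-high cells and 2.17% in the others, and ribosomal protein transcripts 23.6% and 29.2%. Doublets, droplets with more than 1 cell, were not removed because the caller used marked none, and their part in the higher UMI counts was not tested.

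The other pro-B cells were mixed, so they were divided at their median S score of 12.6, the summed UMIs of 18 genes of DNA replication per 10000. The 438 S-rich others had a median of 8257.5 UMIs, close to the G2M-high cells, and the 437 S-poor others had 3016. The S score of the G2M-high cells had a median of 18.4, between those of the S-rich others (38.0) and the S-poor others (4.60), and 158 of them (68.4%) were at or above 12.6. Over the 231 G2M-high cells the 2 scores ran against each other (Spearman −0.54, a description over cells that share a library and, since both scores are shares of the same UMIs, a denominator).

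The 18 genes that chose the cells are given as a description. Ube2c, the ubiquitin-conjugating enzyme that works with the anaphase promoting complex, stood at 1790 CPM (counts per 1000000 counts of the summed cells) in G2M-high cells and 185 CPM in the other pro-B cells, a ratio of 9.67. Ccnb1 and Ccnb2, the B cyclins that activate the kinase Cdk1, stood at 603 and 659 CPM in G2M-high cells and 64.8 and 140 CPM in the others. Cdc20, which opens the anaphase promoting complex to its targets, had 615 CPM in G2M-high cells and 80.9 CPM in the others. At the other end were genes already used in S phase. Top2a, the topoisomerase that untangles sister DNA, had 890 CPM in G2M-high cells and 349 CPM in the others (ratio 2.55), and the proliferation antigen Mki67 had 384 CPM and 148 CPM (ratio 2.60). The remaining 12 genes had ratios between those of Top2a and Ube2c. Where the cells were chosen again with every second gene of the 18, keeping 231 cells, 213 and 217 of them were shared with the G2M-high cells, and the 9 genes left out of the choice were each at least 2.45 times as high in the chosen cells (up to 9.15 times), given as a description.

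Promoter sequences of genes that carry the pattern are shown here, from RefSeq (GRCm38.p6), each from 150 bases before the transcription start to 30 bases from it, read in the direction of the gene. Capitals mark TTTGAA or TTCGAA, the cell cycle homology region known from promoters of mitotic genes, and CCAAT, the box bound by NF-Y, on either strand (TTCAAA and ATTGG are the same letters read on the opposite strand, and TTCGAA reads the same on both). Ube2c (chr2:164769779-164769958, plus strand) and Ccnb2 (chr9:70421525-70421704, minus strand) belong to the 18 genes. Cdc25b (chr2:131186798-131186977, plus strand), Kpna2 (chr11:106999496-106999675, minus strand) and Cdkn3 (chr14:46760391-46760570, plus strand) do not and were higher in G2M-high cells. Tuba1c (chr15:99029741-99029920, plus strand) was also higher and holds neither motif in the window. Ung (chr5:114130285-114130464, plus strand) had the lowest ratio of the named genes.
Ube2c: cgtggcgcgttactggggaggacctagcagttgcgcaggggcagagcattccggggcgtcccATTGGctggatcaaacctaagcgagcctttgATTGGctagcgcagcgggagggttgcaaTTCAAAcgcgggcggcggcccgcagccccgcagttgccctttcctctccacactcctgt
Ccnb2: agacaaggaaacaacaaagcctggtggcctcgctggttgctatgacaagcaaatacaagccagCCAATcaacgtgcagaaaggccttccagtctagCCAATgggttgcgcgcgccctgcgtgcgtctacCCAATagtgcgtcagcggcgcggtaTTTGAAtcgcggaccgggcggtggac
Cdc25b: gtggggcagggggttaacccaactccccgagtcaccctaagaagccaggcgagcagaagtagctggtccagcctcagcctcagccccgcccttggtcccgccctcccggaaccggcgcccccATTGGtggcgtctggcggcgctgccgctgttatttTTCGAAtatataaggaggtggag
Kpna2: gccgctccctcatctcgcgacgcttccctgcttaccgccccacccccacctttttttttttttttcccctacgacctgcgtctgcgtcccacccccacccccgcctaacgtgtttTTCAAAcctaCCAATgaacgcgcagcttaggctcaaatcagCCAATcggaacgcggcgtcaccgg
Cdkn3: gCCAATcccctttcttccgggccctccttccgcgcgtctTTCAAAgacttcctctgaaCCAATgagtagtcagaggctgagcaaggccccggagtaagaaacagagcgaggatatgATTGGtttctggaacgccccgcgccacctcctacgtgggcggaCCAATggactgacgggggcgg
Tuba1c: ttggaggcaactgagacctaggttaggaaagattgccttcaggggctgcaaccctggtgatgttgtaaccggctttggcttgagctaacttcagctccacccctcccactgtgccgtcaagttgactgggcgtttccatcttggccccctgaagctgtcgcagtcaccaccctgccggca
Ung: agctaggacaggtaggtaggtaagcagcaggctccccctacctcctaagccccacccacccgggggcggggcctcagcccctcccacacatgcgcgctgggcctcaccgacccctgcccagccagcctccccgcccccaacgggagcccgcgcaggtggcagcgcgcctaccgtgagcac

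Outside the 18 genes, 142 of 2842 genes (5.00%) had a level in G2M-high cells that was 2-fold or more above that in the other pro-B cells, and 54 (1.90%) had a level 2-fold or more below it, among genes that reached 50 CPM in either group. The share within 2-fold was 93.1%, with a median log2 ratio of 0.07. Ratios of 4-fold or more were reached by 39 genes on the high side and 6 on the low side. Scaled to the UMIs without mitochondrial and ribosomal protein genes, every log2 ratio moved by −0.14 and the split became 140 higher and 124 lower. Against the S-rich others, at like depth, 156 of 2828 genes (5.52%) were higher and 79 (2.79%) lower, and against the S-poor others 304 of 3090 (9.84%) were higher and 232 (7.51%) lower. Of the 142 genes higher than in all other pro-B cells, 108 were also called higher against the S-rich and the S-poor others. Of the 54 lower genes 4 were called lower against both. Counts for gene lists in the following are of genes called by this rule among the genes of the list that reached 50 CPM, and stand beside the 5.00% and 1.90% of all genes. List medians take every gene with 10 or more UMIs, for which the median log2 ratio over all 10502 such genes was 0.0056.

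**Figure D2:**
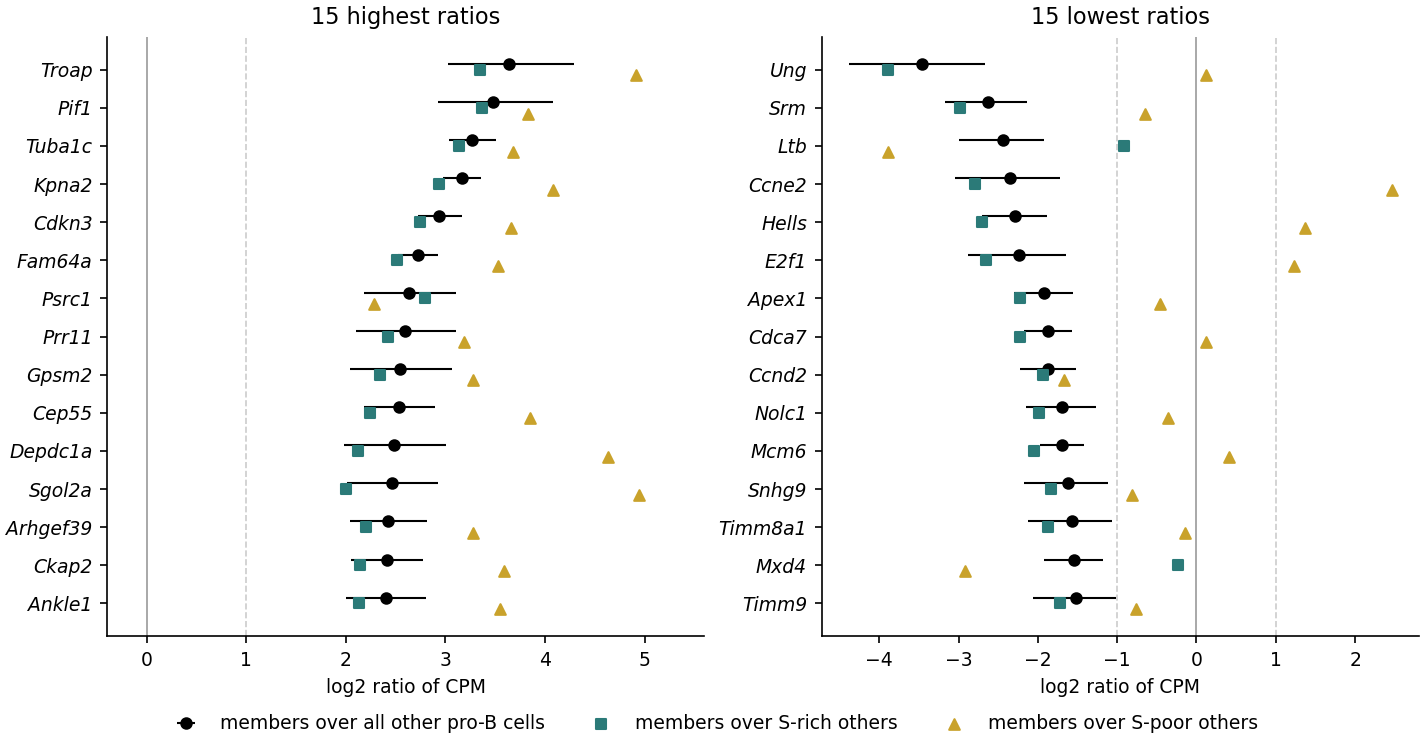
log2 ratios of CPM for the 15 genes with the highest and the 15 with the lowest ratio, outside the 18 genes that chose the cells. Circles are G2M-high cells over all other pro-B cells with exact 95% intervals of counting error, squares are over the S-rich others and triangles over the S-poor others, and dashed lines mark 2-fold. The squares and triangles of the high genes all lie beyond 2-fold, while for 6 of the low genes they lie on different sides of 0.

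The highest ratios included genes of the spindle and of cell division. Troap, a microtubule-associated protein needed for spindle assembly, had 61.9 CPM in G2M-high cells and 4.99 CPM in the other pro-B cells (log2 ratio 3.63, interval 3.02 to 4.29). Kpna2, an importin that carries proteins into the nucleus, had 509 CPM in G2M-high cells and 56.7 CPM in the others (3.17, 2.98 to 3.35). Tuba1c, an alpha tubulin, had 333 CPM in G2M-high cells and 34.5 CPM in the others (3.27, 3.03 to 3.51). These 3 genes were high against the S-rich and the S-poor others alike, with log2 ratios of 3.35, 2.93 and 3.14 over the S-rich cells. Pif1, a DNA helicase, had 68.1 CPM in G2M-high cells and 6.10 CPM in the others, and Cdkn3, a phosphatase of cyclin-dependent kinases, had 327 CPM and 42.7 CPM. The other genes among the 15 highest were Fam64a, Psrc1, Prr11, Gpsm2, Cep55, Depdc1a, Sgol2a, Arhgef39, Ckap2 and Ankle1, with ratios of 5.27 to 6.61. They include Gpsm2, which orients the spindle, Cep55, which acts when daughter cells part, and Sgol2a, which guards cohesion at the centromere.

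The switch into mitosis was represented by 18 genes with a median log2 ratio of 1.02. Of the 9 that reached 50 CPM, 6 were called higher and 0 lower. Of the 3 phosphatases that remove the inhibitory phosphate from Cdk1, Cdc25c had 49.7 CPM in G2M-high cells and 5.73 CPM in the other pro-B cells (log2 3.12, 2.52 to 3.75). Cdc25b had 271 CPM in G2M-high cells and 115 CPM in the others (1.23, 1.06 to 1.40). Cdc25a, the form that also drives entry into S phase, had 11.8 CPM in G2M-high cells and 24.0 CPM in the others (−1.03, −1.74 to −0.38). Against all other pro-B cells the ratio was thus above 1 for Cdc25c and Cdc25b and below 1 for Cdc25a. Cdc25a lay under 50 CPM in both groups, on 23 UMIs in G2M-high cells. Its log2 ratio was −1.38 over the S-rich others and 0.94 over the S-poor others. Ccna2, the A cyclin of S phase and G2, had 540 CPM in G2M-high cells and 142 CPM in the others, and the Cdk1 partner Cks2 had 1417 CPM and 388 CPM. Foxm1, a factor that transcribes mitotic genes, had 48.1 CPM in G2M-high cells and 16.3 CPM in the others (1.57). The inhibitory kinases Wee1 and Pkmyt1 had log2 ratios of 0.64 and 0.16.

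Cdc25b, which serves with Ube2c and Ccnb2 as a marker of these cells but took no part in the choice, stood above the S-rich others and near the S-poor. Its log2 ratio was 2.01 over the S-rich others and 0.14 over the S-poor others. Along the score it stood at 236 CPM below 5, 110 CPM from 5 to under 20, 69.8 CPM from 20 to under 60, 204 CPM from 60 to under 100 and 364 CPM at 100 or more, so it was lowest in the middle of the range. With every cell at 2000 UMIs, Cdc25b was found in 41.6% of G2M-high cells and 26.7% of the other pro-B cells, against 0.220% of CLP cells. Ube2c was found in 86.1% of G2M-high cells and 23.5% of the other pro-B cells, against 1.65% of CLP cells. Of the 3 markers, Ube2c and Ccnb2 were thus part of the choice, and Cdc25b alone does not set these cells apart from the S-poor others. CLP cells come from another library, and free RNA in the pro-B droplets was not measured.

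Among the genes of the machinery itself, the 13 kinesin and cytokinesis genes that reached 50 CPM were all called higher, and also over the S-rich and over the S-poor others. The 18 genes of the list had log2 ratios of 1.42 to 2.53. Prc1, which bundles the microtubules between the separating chromosomes, had 235 CPM in G2M-high cells and 54.5 CPM in the other pro-B cells. Racgap1, its partner in central spindle assembly, had 281 CPM in G2M-high cells and 63.4 CPM in the others. Of the spindle, centrosome and tubulin genes 15 of 17 were called higher, and 13 of 17 over the S-rich others (median 2.05). The log2 ratios ran from Tuba1a at 0.12 to Tuba1c at 3.27. The tubulins were thus not alike, and the beta tubulin Tubb5 (2878 CPM in G2M-high cells, 1314 CPM in the others) and Tuba1b (3119 CPM and 1383 CPM) had log2 ratios of 1.13 and 1.17. Of the spindle checkpoint and kinetochore genes 16 of 17 were called higher, and 14 of 17 over the S-rich others (median 1.74). Bub3, which holds the checkpoint complex at the kinetochore, had 763 CPM in G2M-high cells and 223 CPM in the others, and Cdca8, a subunit of the Aurora B complex, had 543 CPM and 135 CPM.

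Lists for chromosome structure had smaller medians. Of 10 centromere proteins 4 were called higher, and 3 over the S-rich others (medians 1.17 and 0.85). Hjurp, the chaperone that loads Cenpa, had 201 CPM in G2M-high cells and 123 CPM in the other pro-B cells (0.71). Of 17 condensin, cohesin and chromosome proteins 7 were called higher, and 3 over the S-rich others (medians 0.93 and 0.63), with Smc4, a condensin core subunit, at 801 CPM in G2M-high cells and 283 CPM in the others. Of 9 genes for the anaphase promoting complex and chromatid separation 2 were called higher, in both comparisons (medians 0.37 and 0.42). The core subunits Anapc5 and Anapc13 had log2 ratios of 0.31 and 0.09. Ube2s, the enzyme that extends ubiquitin chains for the complex, had 1851 CPM in G2M-high cells and 674 CPM in the others (1.46), and Fzr1, its activator after anaphase, had 216 CPM and 54.1 CPM (ratio 3.99, 3.43 to 4.65). Of 8 genes on the nuclear envelope list 4 were called higher, and 1 over the S-rich others (medians 0.49 and 0.25). That 1 gene was Nucks1 (log2 1.01 over the S-rich others), a DNA-binding nuclear protein rather than a part of the envelope. Among the 4 was the lamin Lmnb1, with 673 CPM in G2M-high cells and 311 CPM in the others. Lmnb1 was not called over the S-rich others.

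Histone transcripts differed from gene to gene. Of 8 histone variants and linkers 3 were called higher, and 2 over the S-rich others (medians 0.59 and 0.69), with H2afy at 0.24, H3f3b at 0.33 and H3f3a at 0.41. H2afx, the variant phosphorylated at DNA breaks, had 2551 CPM in G2M-high cells and 562 CPM in the other pro-B cells (log2 2.18, 2.12 to 2.25). In cells thinned to 2000 UMIs its median was 5 UMIs in G2M-high cells and 0 in the others. Of 14 replication histones 8 were called higher, and 5 over the S-rich others (medians 1.06 and 0.82). Hist1h2ap reached 15836 CPM in G2M-high cells and 6895 CPM in the others, with log2 ratios of 0.79 over the S-rich and 4.39 over the S-poor others. The histone genes are a family of near-identical copies, and the way reads were shared among them is not given in the sources used here, so single members are uncertain. The genes whose counts followed the score most closely over 1070 thinned pro-B cells, outside the 18, were Hmgb2 (Spearman 0.76), H2afz (0.68), Hmgb1 (0.68), H2afx (0.66) and Tuba1b (0.66). Hmgb2, a DNA-bending chromatin protein, had a median of 12 UMIs per thinned G2M-high cell (2 to 33) and 3 per thinned other cell (0 to 25).

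**Figure D3:**
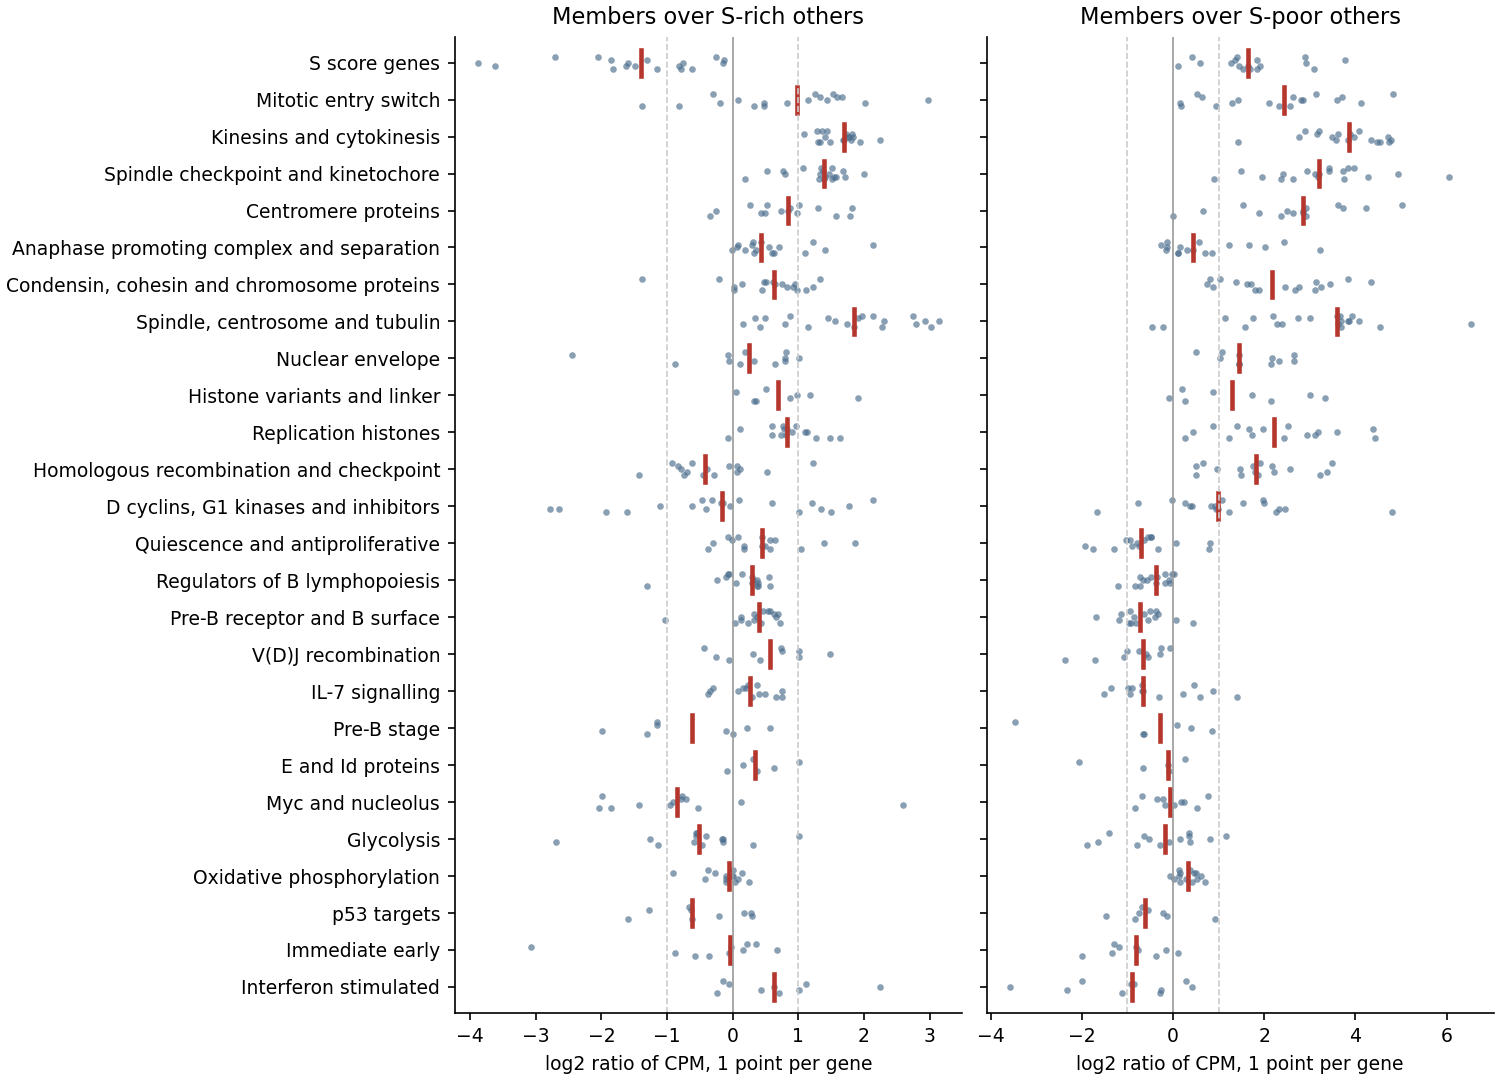
log2 ratios of CPM of single genes (points) with the list median (bar) for 26 gene lists, left for G2M-high cells over the S-rich others and right over the S-poor others, with dashed lines at 2-fold. Kinesin and kinetochore genes lie right of 0 in both panels, as do the spindle genes but for 2 tubulins in the right panel, the S score genes lie left of 0 in one and right of 0 in the other, and the lists of B lineage regulators, pre-B receptor, recombination and interleukin 7 genes have medians within 1 log2 unit of 0.

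The promoters of the higher genes shared letters that the choice of cells did not use. Of the 142 higher genes 138 have a gene name and 111 of these were matched to a promoter, by symbol or by a single older symbol. TTTGAA or TTCGAA stood in 55 of the 111 windows (49.5%), against 160 of 2053 (7.79%) for tested genes that were neither higher nor lower, 4 of 44 (9.09%) for the lower genes and 3048 of 27025 (11.3%) for all promoters. CCAAT stood in 70 of the 111 (63.1%), against 691 of 2053 (33.7%), 12 of 44 (27.3%) and 7489 of 27025 (27.7%) in the same order. Both kinds stood together in 44 of the 111 (39.6%), against 57 of 2053 (2.78%) and 0 of 44. Among the 18 genes that chose the cells, 17 had a promoter, of which 10 held the first motif and 15 the second. These are matches of letters in a window, not sites.

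Several genes of the G1 to S transition and of DNA replication were low against all other pro-B cells. Ung, the uracil glycosylase that repairs newly made DNA, had 6.65 CPM in G2M-high cells and 73.3 CPM in the other pro-B cells (log2 −3.46, −4.38 to −2.67). Hells, a chromatin remodeller of S phase, had 28.2 CPM in G2M-high cells and 137 CPM in the others (−2.28). E2f1, a factor that starts S phase, had 12.8 CPM in G2M-high cells and 60.2 CPM in the others (−2.23), and the E cyclin Ccne2 had 11.3 CPM and 57.3 CPM (−2.35). These 4 genes were 2-fold or more lower than in the S-rich others and not lower than in the S-poor others. Over the S-poor others the log2 ratios were 0.12 for Ung, 1.37 for Hells, 1.23 for E2f1 and 2.46 for Ccne2. Of the 18 S score genes, which divide the others and so are a description against S-rich or S-poor cells, 17 reached 50 CPM, of which 8 were called lower against all other pro-B cells and 0 higher (−3.46 to 0.29). Rrm2 and Rrm1, the subunits of ribonucleotide reductase, stood at 0.29 and 0.24, while Pcna, the replication clamp, stood at −1.08.

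Cyclin D2 was low in all 3 comparisons and cyclin D3 in none by 2-fold. Ccnd2 had 38.9 CPM in G2M-high cells and 142 CPM in the other pro-B cells (−1.87, −2.23 to −1.53), with −1.93 over the S-rich and −1.67 over the S-poor others. Ccnd3 had 776 CPM in G2M-high cells and 858 CPM in the others (−0.14), with −0.41 over the S-rich and 0.99 over the S-poor others. Both encode partners of Cdk4 and Cdk6 in G1. Of 12 genes for D cyclins, G1 kinases and their inhibitors 2 were called higher and 3 lower (median −0.002). The 2 higher genes were kinase inhibitors, Cdkn2d at 477 CPM in G2M-high cells and 127 CPM in the others (1.91, 1.76 to 2.05) and Cdkn2c at 230 CPM and 79.2 CPM (1.54). Another inhibitor of the list, Cdkn1a, had a log2 ratio of −0.34. In CLP and LMPP the D cyclins stood at 408 and 362 CPM for Ccnd2 and at 261 and 126 CPM for Ccnd3.

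Some growth genes were lower. Of 9 genes for Myc and the nucleolus 2 were called lower and 0 higher (median −0.66, and −0.86 over the S-rich and −0.07 over the S-poor others). Srm, the spermidine synthase, had 17.4 CPM in G2M-high cells and 108 CPM in the other pro-B cells (−2.63, −3.18 to −2.13). Myc itself had 9.21 CPM in G2M-high cells and 28.8 CPM in the others (−1.65), on 18 UMIs in the G2M-high cells. Ncl and Npm1, abundant nucleolar proteins, had log2 ratios of −0.51 and −0.64. Of 9 glycolysis genes 1 was called lower and 0 higher (median −0.37). The called gene was Aldoa, an aldolase, at 48.1 CPM in G2M-high cells and 125 CPM in the others (−1.38). Ldha, lactate dehydrogenase, stood at 248 CPM in G2M-high cells and 495 CPM in the others, just short of a call (−0.996). Gapdh stood at 1238 CPM and 1191 CPM. Of 14 genes of oxidative phosphorylation 0 were called (median −0.03).

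The remaining lists had few genes at 50 CPM. Of 4 genes of homologous recombination and checkpoints 1 was called lower and 0 higher (median −0.08), namely Rpa2, a subunit of the single-strand DNA binding protein, at 77.3 CPM in G2M-high cells and 167 CPM in the other pro-B cells. The median of this list was −0.42 over the S-rich others. Over the S-poor others it was 1.82, and all 16 measured genes, Rpa2 among them, were higher. Of 9 quiescence and antiproliferative genes 1 was called higher and 0 lower (median −0.12). That gene was Ccng2, a cyclin linked to cell cycle arrest, at 147 CPM in G2M-high cells and 52.1 CPM in the others. Over the S-rich others 2 genes of this list were called higher and 0 lower (median 0.45). Over the S-poor others 0 were called higher and 4 lower (median −0.70). Of 4 immediate early genes 1 was called lower (median −0.33), with 0 called over the S-rich others (median −0.04) and 3 lower over the S-poor others (median −0.80). Of 2 p53 targets, 2 interferon-stimulated genes, 2 genes of the later pre-B stage and 3 E and Id protein genes 0 were called either way against all other pro-B cells. Over the S-rich others 1 interferon-stimulated gene was called higher and 1 pre-B stage gene lower. Over the S-poor others 1 interferon-stimulated gene and 1 p53 target were called lower.

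In CPM of the summed cells most genes of the B lineage had like levels in both groups. Of 14 regulators of B lymphopoiesis 0 were called either way (median −0.03). Ebf1, the factor that starts the B lineage programme, had 3462 CPM in G2M-high cells and 3605 CPM in the others (−0.06). Pax5, which holds cells to that lineage, had 104 CPM in G2M-high cells and 103 CPM in the others (0.02, −0.22 to 0.25). Among 14 genes for the pre-B receptor and other B surface proteins 0 were called (median 0.05). Igll1 and Vpreb1, the surrogate light chain, had 2623 and 2744 CPM in G2M-high cells and 3012 and 3522 CPM in the others. Of 5 interleukin 7 signalling genes 0 were called, and the receptor Il7r had 125 CPM in G2M-high cells and 96.2 CPM in the others.

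The same genes differed between the S-rich and the S-poor others. Relative to the S-rich others the B cell surface list had a median log2 ratio of 0.39, and relative to the S-poor others −0.72. For Vpreb1 the G2M-high cells had 2744 CPM, the S-rich others 2521 CPM and the S-poor others 6221 CPM. For Igll1 they had 2623 CPM, the S-rich others 2240 CPM and the S-poor others 5094 CPM. CPM levels are shares of the cells' RNA, and the S-poor others held fewer UMIs per cell. Counted per cell, Vpreb1 averaged 23.2 UMIs in G2M-high cells and 21.8 in all other pro-B cells, and Ebf1 29.3 and 22.3. Along the score both genes were highest below 5, lowest from 20 to under 60 and higher again at 100 or more, with Vpreb1 at 6339, 2292 and 3011 CPM in those bins.

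Of the recombination genes Rag1 was lower against all other pro-B cells and its partner was not. Rag1, which cuts DNA together with Rag2, had 39.4 CPM in G2M-high cells and 85.2 CPM in the other pro-B cells (log2 −1.11, −1.48 to −0.76). Rag2 had 82.9 CPM in G2M-high cells and 77.8 CPM in the others (0.09, −0.18 to 0.36). Dntt, which adds bases at the joins, had 1356 CPM in G2M-high cells and 1353 CPM in the others (0.00). For Rag1 the log2 ratio was −0.05 over the S-rich others, at 40.8 CPM, and −2.38 over the S-poor others. For Rag2 it was 1.01 over the S-rich and −1.09 over the S-poor others. Of the 4 genes of the list at 50 CPM, 1 was called lower, Rag1, and 0 higher. Over the S-rich others 1 of 3 was called higher and 0 lower (median 0.58). Over the S-poor others 4 of 5 were called lower and 0 higher, and all 10 genes of the list were lower (median −0.67). The end-joining protein Xrcc6 had 194 CPM in G2M-high cells and 280 CPM in the others (−0.53), and Lig4 29.2 CPM and 26.4 CPM (0.14). In 14 alternative settings the log2 ratio of Xrcc6 ran from −1.15 to 0.41 and that of Lig4 from −0.39 to 1.01.

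**Figure D4:**
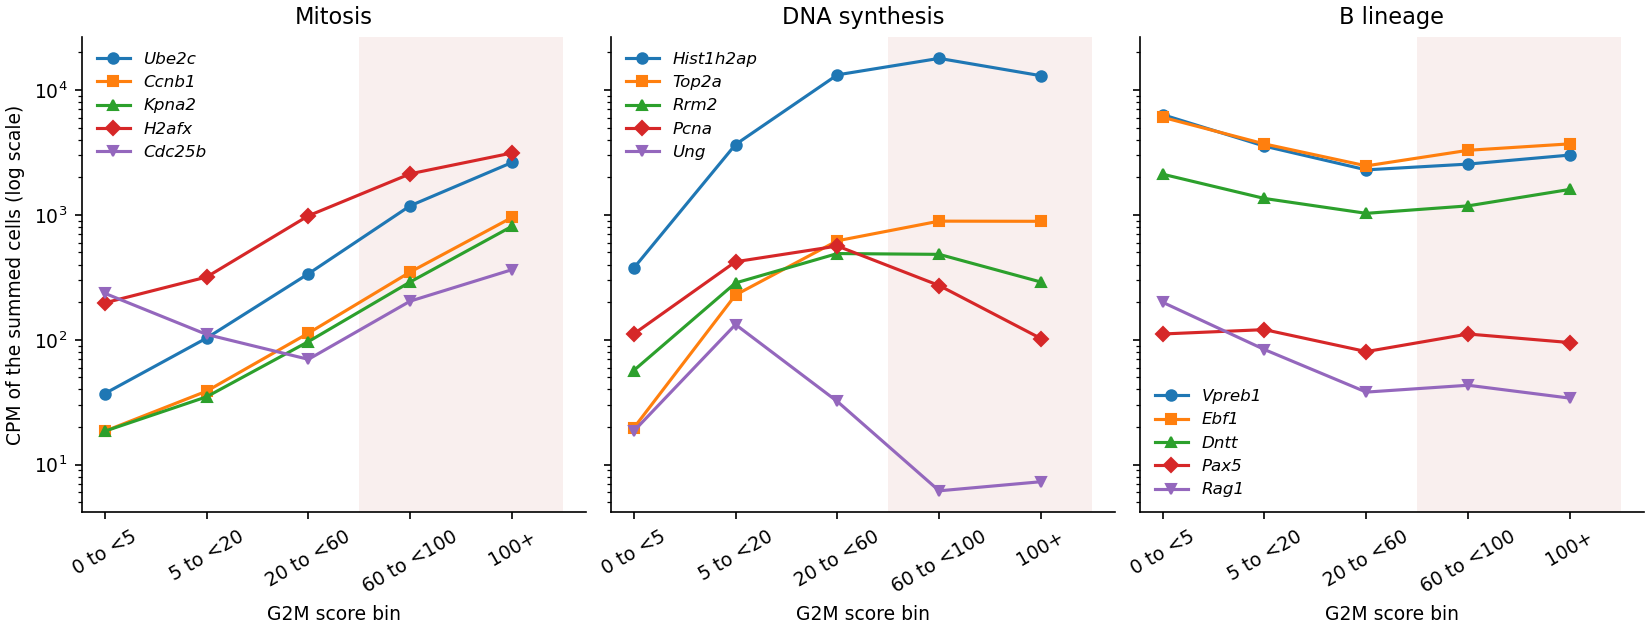
CPM of the summed cells (log scale) in 5 bins of G2M score from low to high, for genes of mitosis (left), DNA synthesis (middle) and the B lineage (right), with the 2 bins of G2M-high cells shaded. Ube2c, Ccnb1, Kpna2 and H2afx climb through all bins, Pcna is highest from 20 to under 60 and Ung from 5 to under 20, and Vpreb1, Ebf1, Dntt and Cdc25b are lowest from 20 to under 60.

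The G2M-high cells were themselves graded. The 101 cells at 100 or more had a median of 8285 UMIs and an S score of 12.4, and the 130 cells at 60 to under 100 had 8488 UMIs and an S score of 23.9. Since the score chose these bins, the 18 genes only describe them, with Ccnb1 at 954 and 349 CPM and Top2a at 888 and 891 CPM in the upper and lower bin. Outside the 18 genes, Kpna2 had 810 CPM in the upper bin and 290 CPM in the lower (ratio 2.79, interval 2.44 to 3.19). Gpsm2 had a ratio of 2.80 between the upper and the lower bin (1.83 to 4.36). Cdkn3 had 486 CPM in the upper bin and 212 CPM in the lower (2.29, 1.95 to 2.70). Pcna ran the other way with 102 CPM in the upper bin and 272 CPM in the lower (0.376, 0.292 to 0.480), and so did Rrm2 with 290 CPM and 483 CPM. Ebf1 stood at 3702 CPM in the upper bin and 3288 CPM in the lower.

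Marker lists of other cell types had like sums in both groups for most lists, and several single markers were detected, among them Mzb1, Car2, H2-Ab1, Irf8 and Lyz2. Their part in the results was not tested. Summed over the 10 myeloid markers the level was 84.5 CPM in G2M-high cells and 82.4 CPM in the other pro-B cells, of which Lyz2 made up 82.9 CPM and 82.0 CPM, and 6 of the 10, with Mpo and Elane, were at 0 in G2M-high cells. The 7 macrophage, 6 megakaryocyte and 6 stromal markers summed to 1.02, 0.51 and 4.09 CPM in G2M-high cells and 0.37, 1.66 and 3.88 CPM in the others. The 10 T and NK cell markers summed to 28.2 CPM in G2M-high cells and 46.7 CPM in the others, with Cd3e and Cd3g at 0, and the 9 erythroid markers to 198 CPM and 193 CPM, of which Car2 made up 175 CPM and 161 CPM. The 7 plasmacytoid dendritic markers summed to 207 CPM and 236 CPM, with Siglech at 0 in G2M-high cells and Irf8 and Bst2, which B cells also express, as the detected members. The 6 plasma cell markers summed to 1223 CPM and 1427 CPM, of which Mzb1, also known from B cell precursors, had 1170 CPM and 1365 CPM. The 7 mature B and 8 stem cell markers summed to 155 and 26.1 CPM in G2M-high cells and 133 and 35.1 CPM in the others, with H2-Ab1 at 145 CPM and 116 CPM. Of the sort markers, Kit had 4.61 CPM in G2M-high cells, on 9 UMIs, and 8.50 CPM in the others. Flt3 had 4.61 CPM and 5.36 CPM, Ly6a (Sca1) 5.63 CPM and 6.28 CPM, and Ptprc, which encodes B220, 36.9 CPM and 32.1 CPM. Over whole libraries Kit RNA stood at 7.47 CPM in pro-B, 28.3 CPM in CLP and 85.2 CPM in LMPP, all sorted as cKit+ by surface protein.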

How the data were processed

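The authors deposited whole-number UMI counts per gene and barcode for each library, and the submitters' processing notes name Cell Ranger and the mm10 build. For the version, the annotation and the calling of cells, nothing was stated in the labels read here. Cultured cells named in the labels and immunoglobulin genes were not analysed here.

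Of 1123 pro-B barcodes 16 failed the mitochondrial limit and 1 the limit of 500 genes. Kept cells held 1953650 (G2M-high) and 5413506 (other) UMIs, so that 50 CPM is 97.7 and 271 UMIs. Counts were summed per group and divided by the group total (CPM). Ratios have exact conditional Poisson 95% intervals. A gene was called at 2-fold or more with 50 CPM or more in the higher group, leaving out the 18 genes of the score and immunoglobulin genes. List medians use genes with 10 or more UMIs in both groups together, and list counts those at 50 CPM or more. Shares and per-cell medians use cells thinned without replacement to 2000 UMIs, which left out 0 G2M-high and 36 other cells. Scrublet, as run in scanpy with an expected rate of 1%, called 0 pro-B cells, so doublets were not removed. Whether the caller missed doublets was not tested. The 183 genes named by rule were the 18 genes, the 15 highest and 15 lowest ratios (unnamed models, mitochondrial and ribosomal protein genes left out), the 3 highest of each list by CPM, all of the lists of B lymphopoiesis regulators, pre-B receptor, recombination and mitotic entry, the most abundant gene of each marker list, and the 5 genes most like the score. The cells and all lists were chosen with earlier results of these data known. Fzr1, Cdkn2c, Ccng2, Myc, Rrm1, Tuba1a, H2afy, Aldoa and the sort markers fall outside that rule and were chosen after their values were seen. The ratios between the 2 upper score bins were also chosen after their values were seen.

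Promoters came from RefSeq (GRCm38.p6), the first start listed per gene. The group ratios, their intervals and the calls were tested on simulated Poisson sums with known changes, without added spread between cells. The other steps were not tested in this way. Python 3.11.15 was used with scanpy 1.11.5, pandas 2.3.3, SciPy 1.17.1, matplotlib 3.10.9 and NumPy 2.4.6.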

Additional observations from a re-analysis of the deposited data

How the results depend on the processing

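The number of genes higher in G2M-high cells was 142. It stayed between 128 and 186 under other score thresholds, gene sets for the score, filters on cells, scalings, cell weights and thinning. It also stayed in that range against only the S-rich others or only other cells with a score under 20. Against only the S-poor others, as given above, 304 genes were higher and 232 lower. The number higher became 90 at 100 CPM or more, 227 at 20 CPM or more, 280 at 1.5-fold and 76 at 3-fold. The number lower was 54 and became 124 when scaled without mitochondrial and ribosomal protein genes, 98 in thinned cells, 24 at 100 CPM or more, 143 at 20 CPM or more, 152 at 1.5-fold and 12 at 3-fold. The group held 324 cells at a score threshold of 40 and 156 at 80. The ratio of median UMIs per cell was 1.69 to 2.06 across the score alternatives. Of 79 named genes past 2-fold, all kept their direction in 14 alternatives and 60 stayed past 2-fold in all of them. The cause of the other moves was not tested. The S-poor others alone were not among the 14 alternatives, and the alternative without doublet calls removed 0 cells. Over the S-poor others some lower genes had the opposite sign, such as Pcna (−1.08 over all others, 1.90 over the S-poor) and Hells (−2.28 and 1.37). No paired analysis was possible because each population is 1 library, and for the same reason no library could be left out, and run, sort and population cannot be told apart across libraries. Depth limits genes under 50 CPM, and the S-poor others hold only 1465401 UMIs.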

Other observations

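Some genes outside the cell cycle differed along the score within the G2M-high cells. Ifi27l2a, an interferon-stimulated gene, had 698 CPM at scores of 100 or more and 321 CPM at 60 to under 100 (ratio 2.17, interval 1.90 to 2.48), and 5 cells held 14.7% of its UMIs in G2M-high cells. Over all G2M-high cells it had 480 CPM, against 270 CPM in the other pro-B cells. Between the same bins Bst2 had a ratio of 1.40 (0.97 to 2.02) and Rtp4 of 1.56 (0.93 to 2.64), both intervals including 1. Lyz2 had 116 CPM at 100 or more and 59.2 CPM at 60 to under 100.

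Some genes outside the cell cycle had unlike ratios over the S-rich and the S-poor others. Btg1, an antiproliferative gene, had log2 ratios of 0.18 over the S-rich and −1.29 over the S-poor others, and Jund, an immediate early factor, 0.35 and −1.29. Mxd4, which competes with Myc for its partner Max, had −0.24 and −2.92, and Ltb, a lymphotoxin chain, −0.92 and −3.89. Bax, a p53 target that acts in cell death, had 137 CPM in G2M-high cells and 209 CPM in the other pro-B cells, with −0.64 and −0.55 over the S-rich and S-poor others.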
